A study of Dendrobaena veneta with 18 samples.

Results

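Cerebral ganglia of earthworms of the species Dendrobaena veneta that had lived for 28 days in soil with 10 mg/kg carbamazepine were compared with cerebral ganglia of control worms. The comparison rests on 6 RNA libraries, 3 per group. Its members are the assembled genes, called features here, with at least 10 counts in at least 3 of these 6 libraries. There are 42473 such features, or 17.4% of the 243619 in the whole table, and they hold between 97.7% and 98.5% of the counts of each of the 6 libraries. A further 91936 features had at least 1 count in these libraries but stayed below that limit and were not tested.

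The cerebral ganglion is the brain of an annelid worm. It lies above the pharynx, receives sensory input from the front of the body and holds many neurosecretory cells. Carbamazepine is an anticonvulsant medicine that reaches soil through wastewater and sewage sludge, and in vertebrates it acts mainly by blocking voltage-gated sodium channels, which dampens repeated firing of neurons. The effect of a soil exposure on transcript levels in this tissue is the question behind the comparison.

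The high dose group lived in topsoil spiked with 10 mg/kg carbamazepine. A low dose group at 0.6 mg/kg, also with 3 ganglion libraries, is used below for reference levels. The control group lived in topsoil spiked with methanol, which was left to evaporate before use. All groups were adult worms kept moist and dark at a constant temperature, without added food. Gut was sampled in the same 3 groups, and gut values are given for the features described. The labels do not say whether a replicate is 1 worm or a pool, nor whether replicates came from separate boxes, so all p-values refer to the spread among these samples and no further. Polyadenylated RNA was sequenced, and the reads were assembled without a reference genome. The deposited files give the features identifiers only, with no gene name, function or sequence. No role can therefore be given to any feature below, and the tissue could not be checked against known marker genes of neurons, muscle or gut. In bulk tissue, fewer cells of a type and less RNA per cell cannot be told apart.

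The high dose ganglia held 13738854, 13508912 and 13640407 counts, and the control ganglia 13301951, 13564686 and 15253849. High dose ganglia showed 73182, 87286 and 81628 features with at least 1 count, against 80183, 82862 and 69387 in control ganglia. The 20 most abundant features of a library took 30.8%, 22.3% and 24.7% of its counts in the high dose and 21.7%, 25.2% and 28.5% in control. None of these measures separated the groups, since the ranges of both overlapped in each.

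One library stood apart from its group in which features it carried. Libraries were compared by presence, at 5 counts or more, over 2741 features that in both tissues reached 30 counts in some library and were at 0 in some other. Control ganglion 1 correlated at 0.77 with control gut 2, and control ganglion 3 at 0.747 with control gut 3. High dose ganglion 1 correlated at 0.694 with high dose gut 2, and high dose ganglion 2 at 0.77 and 0.748 with high dose guts 3 and 1. High dose ganglion 3 had no such partner among high dose guts, where it reached 0.0764 to 0.11, and its highest value was 0.403 with control gut 3. Among the ganglia it correlated at 0.477 with control ganglion 3, while the other 14 pairs of these 6 libraries lay at 0.213 or below. Control ganglion 2 stayed at 0.17 or below with every gut, but control gut 1 had no values and could not be compared. High dose guts 1 and 3, which both matched high dose ganglion 2, differed by a mean chi-square of 17.6 per feature. Any pair of ganglia, another tissue, differed by 33.6 or more, and low dose guts 1 and 3 by 2.32. High dose guts 1 and 3 may come from 1 worm, which was not tested. The library labelled high dose 3 thus shared part of its pattern of present features with the libraries labelled control 3. Its counts are used as labelled, and several but not all of the results that rest on it are given with and without it.

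No feature of the ganglion passed an adjusted p under 0.05 between the high dose and control in edgeR, the main test. The 9 ganglion libraries were fitted with edgeR, whose quasi-likelihood F test was used with Benjamini-Hochberg adjustment over the 42473 features, and the share called was 0%. The lowest adjusted p was 0.428. An unadjusted p under 0.05 was reached by 1160 features (2.73%), and 5% of 42473 is 2123.7. Of these, 803 (1.89%) had a higher and 357 (0.841%) a lower fitted level in high dose ganglia. DESeq2, run as an alternative on the same counts, called 85 features, 72 higher and 13 lower, with 1788 at an unadjusted p under 0.05. Of the 85, 17 had no counts in any control ganglion or in any high dose ganglion. The groups did not overlap, with every high dose value on 1 side of every control value, for 3176 features (7.48%), 1793 of them higher (4.22%) and 1383 lower (3.26%) in the high dose. Of the ways to label 3 against 3 libraries, a share of 0.1 separates the groups for a feature without ties, and 7.48% lay below that. This rule is looser without the library labelled high dose 3, where 3077 features were higher and 2979 lower. Without the library labelled high dose 3, the features at an unadjusted p under 0.05 were 594 higher and 698 lower, and without high dose 2 they were 617 higher and 830 lower. The excess of higher over lower features therefore turned round when either library was left out. Leaving out control 2 gave 2038 features at an unadjusted p under 0.05, 1667 higher and 371 lower.

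**Figure D1:**
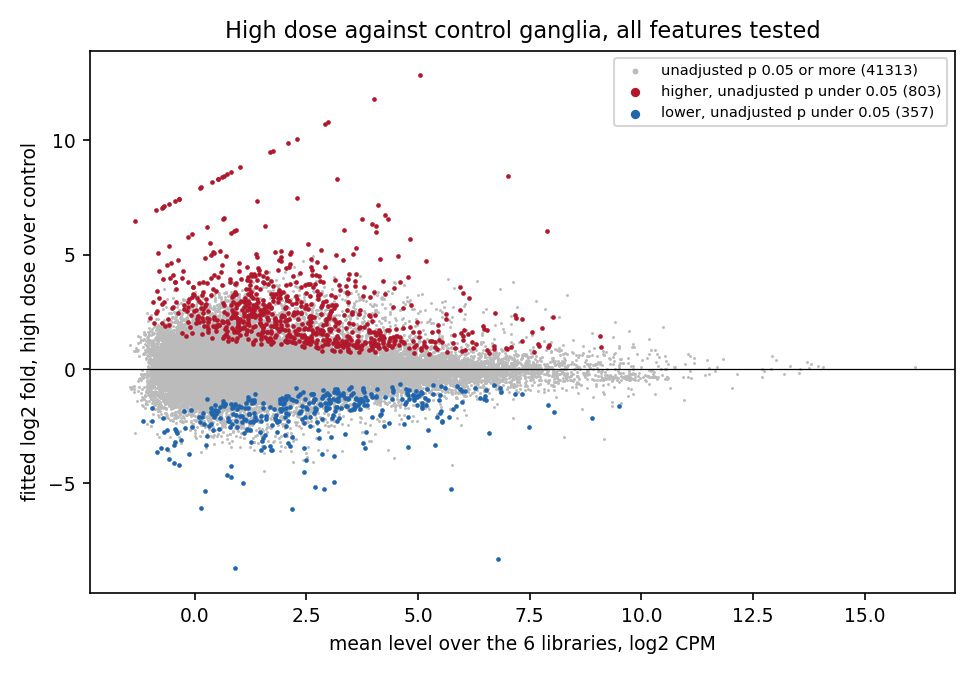
Fitted log2 fold of high dose over control ganglia (vertical axis) against the mean level over the 6 libraries in log2 CPM (horizontal axis, a log scale), 1 point per feature. Red marks the 803 features with a higher and blue the 357 with a lower fitted level at an unadjusted p under 0.05; no feature passed the adjusted threshold in edgeR, and the straight upper edge holds features at 0 in all control ganglia, whose fitted folds depend on a prior count.

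The same fit gives the 2 other comparisons of ganglion groups for these 42473 features. Low dose against control had 6584 features at an unadjusted p under 0.05 (15.5%), 3619 higher (8.52%) and 2965 lower (6.98%) in the low dose. High dose against low dose had 4494 (10.6%), 2407 higher (5.67%) and 2087 lower (4.91%) in the high dose. Both comparisons also had 0 features at an adjusted p under 0.05. The 3 comparisons share groups of libraries, so their counts are given side by side only, and the features were kept by their counts in high dose and control ganglia and not in low dose ganglia. The correlation of log2 CPM between a high dose and a control ganglion ran from 0.719 to 0.857 over 9 pairs, with a median of 0.814. It ran from 0.762 to 0.843 within the high dose group and from 0.728 to 0.816 within control. Between low dose and control ganglia it ran from 0.647 to 0.797, with a median of 0.723. The pairs within control had a median of 0.769, and the ranges of the pairs between and within these groups overlapped.

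**Figure D2:**
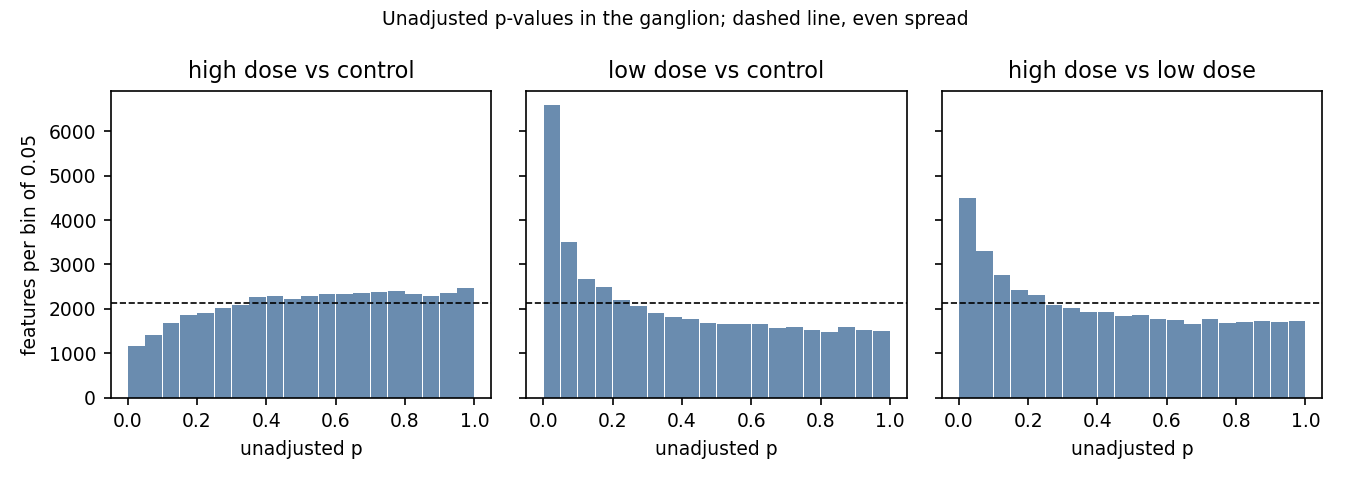
Number of features (vertical axis) in each bin of 0.05 of the unadjusted p (horizontal axis) for the 3 comparisons of ganglion groups in 1 fit. The lowest bin holds 1160 features for high dose against control, 6584 for low dose against control and 4494 for high dose against low dose, and the dashed line marks the 2123.65 per bin of an even spread.

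The precision behind the count of 0 differed with the level of a feature. The median standard error (SE) of a log2 fold was 0.719 over all features, and it was 1.15 for the 5379 features with a mean under 1 CPM, 0.449 for the 7012 features from 10 to 30 CPM, and 0.44 for the 1040 above 100 CPM. CPM scale counts to the size of the library, after scaling between libraries. The 95% interval of the fold lay within 4-fold either way for 19344 features (45.5%) and within 2-fold for 2983 (7.02%). Within 4-fold were 5.41% of the features under 1 CPM and 78.3% of those from 10 to 30 CPM. For most features a 2-fold difference thus lay inside the interval and was not detectable at this depth and spread. The median within-group SD of log2 CPM was 0.539 in high dose and 0.645 in control ganglia, and the SD was smaller in the high dose group for 24260 features (57.1%). Fitted folds of at least 4 were seen for 1396 features on the higher (3.29%) and 536 on the lower side (1.26%).

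The most abundant features showed no separation of the groups. DN76330_c0_g1, the most abundant feature of these libraries, stood at 103365, 58118 and 62234 CPM in high dose ganglia, against 35315, 69173 and 105256 CPM in control ganglia. Its values overlapped across the whole range, and its log2 fold was 0.09 (95% interval -1.25 to 1.44). DN63109_c0_g1 stood at 23440, 10059 and 19460 CPM in high dose ganglia and at 11388, 16165 and 22703 CPM in control ganglia, with a log2 fold of 0.08 (95% interval -1.02 to 1.17). Among the 20 features of highest mean level, 11 had a higher and 9 a lower fitted level in the high dose. Their log2 folds ran from -0.81 to 0.57, and none had groups without overlap.

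The feature with the smallest p was DN97191_c2_g2, with an assembled length of 1662 bases. It had 377, 199 and 155 counts in high dose ganglia, against 0, 0 and 2 in control ganglia. It stood at 18 ± 10.6 CPM in high dose ganglia and 0.0504 ± 0.0874 CPM in control ganglia (SD, n = 3 each). The ratio of the summed counts per scaled library was 376 (95% Clopper-Pearson interval 104 to 3114, counting error only). The log2 fold was 8.33 (SE 0.97) with an adjusted p of 0.428 (edgeR). DESeq2 gave it an adjusted p of 6.04e-09, and limma on log2(FPKM + 1) gave 0.0388. The feature met the count limit only through the high dose libraries, so these small p-values are no independent support. All 3 exposed libraries of each dose lay far above all 3 control ganglia, since low dose ganglia had 258, 199 and 266 counts. The same division was seen in gut, with 143, 437 and 224 counts in high dose guts, 255, 262 and 279 in low dose guts and 0 in both control guts.

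DN80356_c6_g5 was the second by p. It had 158, 179 and 71 counts in high dose ganglia and 0 in all 3 control ganglia, and 192, 45 and 79 in low dose ganglia. Its mean was 9.70 ± 3.96 CPM in high dose ganglia (SD, n = 3), at least 46.5-fold higher than a floor of 3 counts per control library, and the adjusted p was 0.446 in edgeR, 2.59e-08 in DESeq2 and 0.0383 with limma on log2(FPKM + 1). This feature also met the count limit only through the high dose libraries. In gut it was scarce, with 10, 2 and 6 counts in high dose guts and 0 in both control guts.

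On the lower side the smallest p belonged to DN95092_c2_g3. It stood at 12.3, 8.48 and 10.0 CPM in high dose ganglia, against 63.2, 60.3 and 70.0 CPM in control ganglia. All 3 high dose values lay far below the lowest control value, with a small spread within both groups. The log2 fold was -2.65 (SE 0.51) with an adjusted p of 1 (edgeR), against 0.00174 in DESeq2 and 0.357 with limma on log2(FPKM + 1). Low dose ganglia stood at 14.8, 5.07 and 3.88 CPM, a range that spans the high dose values. DN93610_c0_g1 stood at 2.64, 1.88 and 6.44 CPM in high dose ganglia and at 22.0, 20.2 and 32.2 CPM in control ganglia, with low dose ganglia at 2.76, 4.76 and 7.85 CPM. Its log2 fold was -2.76 (SE 0.59, edgeR adjusted p of 1), and the groups did not overlap. Its adjusted p was 0.00892 in DESeq2 and 0.236 with limma on log2(FPKM + 1).

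**Figure D3:**
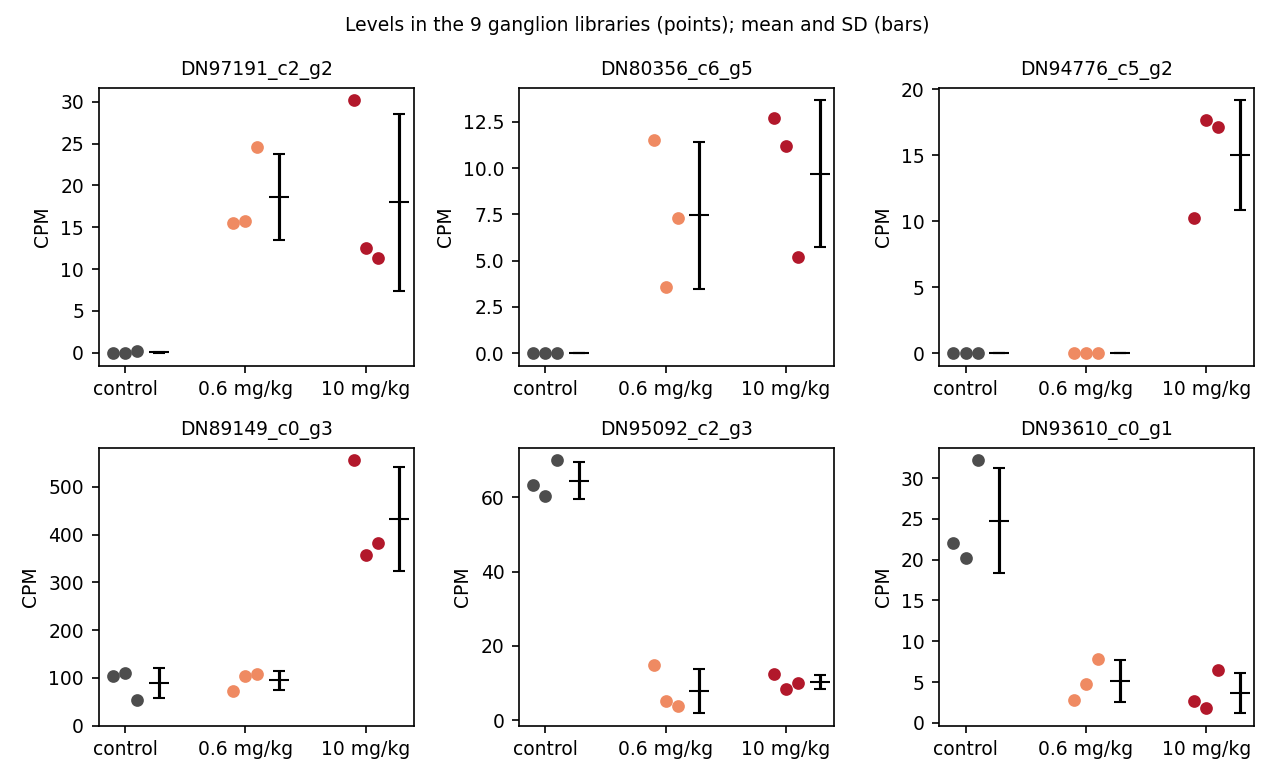
Level in CPM (vertical axes, each with its own scale) of 6 features in control, 0.6 mg/kg and 10 mg/kg ganglia; points are libraries, and the bar beside them is the mean with its SD (n = 3). DN97191_c2_g2 and DN80356_c6_g5 were at or near 0 in control only, DN94776_c5_g2 was above 0 at 10 mg/kg only, DN89149_c0_g3 was high at 10 mg/kg only, and DN95092_c2_g3 and DN93610_c0_g1 were high in control only; none had an adjusted p under 0.05 in edgeR over the ganglia.

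A small group of features was present in every high dose ganglion and listed at 0 in every control ganglion. With at least 10 counts in each high dose library there were 27 (0.0636% of the features tested), and in the opposite direction there was 1 (0.00235%). They were chosen by their values, so the numbers describe them and no test is given. Their counts summed over the high dose ganglia ran from 33 to 2626 with a median of 122. Only 4 had more than 500, and 11 had under 100. The exception in the other direction was DN81375_c1_g6, with 0 counts in all high dose ganglia and 52, 94 and 19 counts in control ganglia. It also had 0, 0 and 144 counts in low dose ganglia. These 28 features were short, with a median assembled length of 401 bases against 1218 bases for all members.

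The imbalance of 27 against 1 depended on single libraries. Leaving out any library loosens the rule, since fewer libraries must meet it, so neither count can fall. Without the library labelled high dose 3 the counts over all features were 104 and 56, and without control 3 they were 97 and 88. Without high dose 1 they were 155 and 1, without high dose 2 they were 70 and 7, without control 1 they were 74 and 17, and without control 2 they were 113 and 9. With a limit of 20 counts in place of 10 there were 13 and 0, and with 5 counts 76 and 8. The high dose and control libraries numbered 3 are the pair that shares part of its pattern of present features.

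Presence and absence without regard to dose was common in these worms. Among the 3 low dose ganglia, 1115 of the 42473 features (2.63%) had at least 30 counts in 1 library and 0 in another. This applied to 22 of the 1160 features at an unadjusted p under 0.05 (1.9%), and to 6 of the 28 at 0 in 1 group (21.4%). Of the 27 features absent from control ganglia, 11 had counts in all 3 low dose ganglia, 10 in 1 or 2 of them and 6 in none. In gut, 23 of the 27 were at 0 in both control guts, 1 had at least 5 counts in a control gut, and 9 had at least 10 counts in every high dose gut. Because libraries match between tissues as given above, gut and ganglion values may not be independent. Outside the members, each library also held features with at least 30 counts of its own and 0 in the other 5 libraries, with 49, 160 and 112 such features in high dose ganglia and 77, 118 and 6 in control ganglia. The one with most counts in a high dose library was DN86788_c2_g1, with 1281 counts in high dose ganglion 3 and 0 in all other libraries. In control it was DN124926_c0_g1, with 697 counts in control ganglion 2, and 2 and 3 counts in low dose ganglia 1 and 2.

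**Figure D4:**
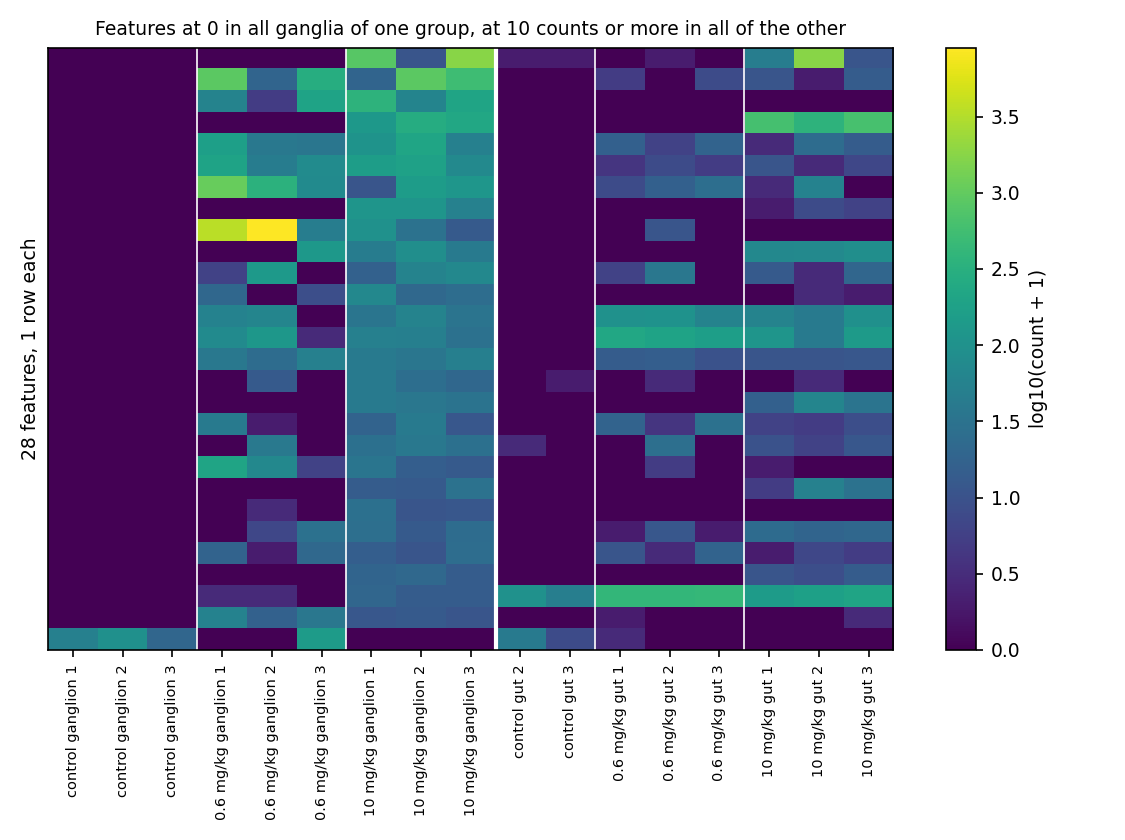
Counts, as log10(count + 1) in colour, of the 28 features with 0 counts in every ganglion of 1 group and at least 10 in every ganglion of the other (rows) in 9 ganglion and 8 gut libraries (columns, ordered by dose within tissue). The top 27 rows are dark in all control ganglia and the bottom row in all high dose ganglia. Low dose ganglia and the guts of both doses vary from row to row, while 23 of the 27 are at 0 in both control guts.

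A second small group had high dose ganglia apart from both other groups. In 9 features (0.0212%) every high dose ganglion had at least 2 times the highest control or low dose value and the high dose mean was at least 10 CPM. In 1 feature (0.00235%), DN98375_c3_g3, every high dose value was at most 0.5 times the lowest other value. On this side the mean over control and low dose ganglia had to be at least 10 CPM, so the level rules of the 2 sides differ. These 10 features were chosen after their values were seen, by their separation in these same libraries. No adjusted p among them was under 0.05 in edgeR over the ganglia, while DESeq2 called 8 of the 10. Because of that choice, the DESeq2 calls are no independent support. Without the library labelled high dose 3, where the rule asks for fewer libraries and is looser, the counts were 26 and 17.

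DN94776_c5_g2 was one of the 9. It had 127, 282 and 234 counts in high dose ganglia and 0 in all control ganglia, and 0 in all low dose ganglia. Its mean was 15.0 ± 4.19 CPM (SD, n = 3), at least 71.9-fold higher than the floor of 3 counts per control library, with an adjusted p of 0.61 in edgeR. In gut it had 607, 360 and 633 counts in the high dose and 0 in all control and low dose libraries. The feature thus had counts in all 6 high dose libraries of both tissues and in none of the 11 others, where high dose guts 1 and 3 may be 1 worm. DN84628_c1_g1 was not one of the 9, since its high dose mean was 6.7 CPM. It had 114, 112 and 54 counts in high dose ganglia and 0 in all control and low dose ganglia. In gut it had 1, 7 and 5 counts in the high dose and 0 in the other libraries. DN106295_c0_g3 shows the other extreme, with 852, 10 and 1764 counts in high dose ganglia and 0 in all control ganglia, and 47, 1780 and 10 in high dose guts.

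Some other members of this group were expressed in all ganglia. DN89149_c0_g3 stood at 557, 357 and 383 CPM in high dose ganglia, against 104.5, 111 and 53.4 CPM in control ganglia and 71.6, 104.8 and 108 CPM in low dose ganglia. The lowest high dose value was more than 3 times the highest value of any other ganglion. Its log2 fold over control was 2.27 (SE 0.40) with an adjusted p of 1 (edgeR). In gut the levels were 63.4, 89.3 and 78.0 CPM in the high dose and 39.5 and 38.9 CPM in control. DN91173_c0_g1 stood at 98.8, 137 and 81.0 CPM in high dose ganglia, against 29.3, 14.9 and 7.94 CPM in control ganglia. DN98375_c3_g3, the feature on the lower side, averaged 3.41 CPM in high dose ganglia, 23.6 CPM in low dose ganglia and 15.2 CPM in control ganglia, a log2 fold over control of -2.15.

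When the ganglion comparison was taken from a fit over both tissues, chosen after the data were seen, 7 features passed an adjusted p under 0.05 (0.0165%), and all 7 were higher in the high dose. An unadjusted p under 0.05 was reached there by 1749 features (4.12%), 1105 higher (2.6%) and 644 lower (1.52%). The fit averages gut low dose libraries 1 and 3 and has 16 samples, with high dose guts 1 and 3 and the matching gut and ganglion libraries as separate samples. With high dose guts 1 and 3 averaged as well, 1 feature passed, DN97191_c2_g2 (edgeR adjusted p of 0.0499), and the adjusted p of the other 6 ran from 0.0889 to 0.0904. Of the 7, 5 had at most 2 counts in all control ganglia together and so entered the test only through the high dose group. DN97191_c2_g2 (adjusted p of 0.0227), DN94776_c5_g2 (0.024) and DN80356_c6_g5 (0.0293) were among them in edgeR. A pair of the 7 was expressed in every ganglion. DN96465_c0_g2 stood at 170.4, 112.8 and 126.8 CPM in high dose ganglia, against 44.7, 44.5 and 32.4 CPM in control ganglia, with low dose ganglia at 49.6, 58.7 and 61.1 CPM. DN80103_c2_g1 stood at 414, 336 and 278 CPM in high dose ganglia and at 78.5, 114.7 and 102.2 CPM in control ganglia, with low dose ganglia at 117.9, 103.2 and 162.3 CPM. Neither overlapped between high dose and the other groups. In the fit over both tissues their log2 folds were 1.75 (SE 0.23, adjusted p of 0.0293) and 1.81 (SE 0.25, adjusted p of 0.0365), and in the fit over ganglia alone the adjusted p was 1 for both in edgeR. DN89149_c0_g3 had an adjusted p of 0.0541 in the fit over both tissues. The other 2 of the 7, DN95707_c2_g2 and DN94581_c1_g3, averaged 3.05 and 1.10 CPM in high dose ganglia and were at 0 in control ganglia.

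The high dose difference was set against that of gut with the difference of the 2 log2 folds in 1 fit. That fit takes the matching gut and ganglion libraries, and high dose guts 1 and 3, as separate samples, and control gut has only 2 libraries. No feature passed an adjusted p under 0.05 in edgeR (0%), and 844 had an unadjusted p under 0.05 (1.99%), 414 with the larger log2 fold in the ganglion (0.975%) and 430 with the larger log2 fold in gut (1.01%). DN94581_c1_g3 had the smallest p on the ganglion side. It had 19, 13 and 13 counts in high dose ganglia and 0 in all control ganglia, while gut held 145, 175 and 201 counts in the high dose and 97 and 48 in control. DN106522_c2_g1 stood at 8.81, 38.1 and 23.0 CPM in high dose ganglia and at 5.63, 12.4 and 4.46 CPM in control ganglia, and its groups overlapped. In gut it had 0, 1 and 3 counts in the high dose and 23 and 5 in control. On the gut side, DN106790_c0_g1 stood at 14.9, 8.85 and 11.3 CPM in high dose ganglia and at 11.6, 8.77 and 7.42 CPM in control ganglia. In gut it stood at 1.39, 1.79 and 2.88 CPM in the high dose and at 0.0842 and 0.105 CPM in control. DN96792_c1_g1 stood at 11.5, 13.6 and 7.90 CPM in high dose ganglia and at 24.2, 13.6 and 16.6 CPM in control ganglia, against 5.27, 1.16 and 4.02 CPM in high dose guts and 0.421 and 0.209 CPM in control guts. The adjusted p was 1 for each of these 4 features.

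In gut itself, high dose against control had 2 features at an adjusted p under 0.05 in the fit over both tissues, both higher (0.00471%), 0 with high dose guts 1 and 3 averaged, and 1922 at an unadjusted p under 0.05 (4.53%), 1153 of them higher (2.71%) and 769 lower (1.81%). Features with a low p in the ganglion had gut folds that leaned the same way. Of the 803 with a higher level at an unadjusted p under 0.05, 592 were also higher in high dose than in control gut (73.7%), against 50.7% of all members. Of the 357 with a lower level, 275 were also lower in gut (77%), against 45.3% of all members. Without the library labelled high dose 3 the numbers were 462 of 594 (77.8%) and 590 of 698 (84.5%). Most of these ganglia and guts matched in the features they carry and may come from the same worms, in which case the shares also count what single worms carry in both tissues.

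Summing the features of 1 assembly component, which can be fragments or alleles of 1 transcript, gave 34799 components to test. None passed an adjusted p under 0.05 in edgeR (0%), and 1057 had an unadjusted p under 0.05 (3.04%), 719 higher (2.07%) and 338 lower (0.971%) in the high dose. DN96217_c0 stood at 100.4, 109.9 and 83.5 CPM in high dose ganglia, against 16, 21.2 and 16.9 CPM in control ganglia. The groups were far apart with little spread inside either, and low dose ganglia lay between them at 55.0, 38.3 and 46.0 CPM. The log2 fold was 2.44 (SE 0.30) with an adjusted p of 0.232 (edgeR). Its features behaved unlike each other. DN96217_c0_g3 had 18, 903 and 528 counts in high dose ganglia and 0 in all control ganglia. DN96217_c0_g1 had 636, 459 and 347 counts in high dose ganglia, against 46, 119 and 98 in control ganglia. DN96217_c0_g5 had 587, 366 and 264 counts in high dose ganglia, against 200, 183 and 122 in control ganglia. The library with fewest counts of g3 among high dose ganglia was the one with most counts of g1 and g5.

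On the lower side, DN80492_c0 stood at 40.9, 47.4 and 71.7 CPM in high dose ganglia, against 143, 308 and 484 CPM in control ganglia. Its groups did not overlap, and its log2 fold was -2.55 (SE 0.54, edgeR adjusted p of 1). Low dose ganglia stood at 146.8, 83.5 and 229.5 CPM and so overlapped control. Of 1136 components that held a feature at an unadjusted p under 0.05, 23 held 2 or more, and in 16 of these all such features were higher, in 6 all were lower and in 1 they went both ways.

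Features restricted to the ganglion in low dose worms were used in place of markers of the tissue. They were defined in low dose worms alone, with at least 20 CPM in every low dose ganglion and at least 20 times the highest low dose gut value, and 445 of the 453 were members. Their fitted level was higher in high dose than in control ganglia for 414 of the 445 (93%) and lower for 31, against 48.3% higher among all members. The median log2 fold was 1.61, against -0.02 for all members. At an unadjusted p under 0.05 were 38 of them on the higher side and 1 on the lower (8.76% together, against 2.73% of all members), and the lowest adjusted p was 1 in edgeR. The median level of the set was 2.64, 74.9 and 42.8 CPM in high dose ganglia, against 0.703, 32.2 and 3.78 CPM in control ganglia. In the low dose ganglia that defined the set it was 83.8, 59.7 and 114 CPM. Most of the set was thus scarce in high dose ganglion 1 and control ganglia 1 and 3, so it does not mark the tissue evenly. The groups overlapped, and an exact two-sided permutation test over the 6 libraries gave p = 0.3, where 0.1 is the smallest p that 3 against 3 allows. High dose ganglion 1 and control ganglion 1 were each the lowest of their group, and in each pair of libraries with the same number the high dose one was higher. Listed at 0 were 27, 1 and 1 of the 445 in high dose ganglia and 135, 1 and 20 in control ganglia. Without control ganglion 2 the median log2 fold was 3.46, and without high dose ganglion 2 it was 0.88.

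The summed level of the ganglion-restricted features overlapped between the groups as well. They held 10.7%, 12% and 11.3% of all counts in high dose ganglia and 13.1%, 8.9% and 3.55% in control ganglia, where the highest and the lowest value were both controls (exact permutation p = 0.4). Control ganglion 1 thus had the highest share and the lowest median, so that a few features carried its share. Gut-restricted features, defined the same way in low dose guts, held 0.0283%, 0.0346% and 0.0796% of counts in high dose ganglia and 0.0279%, 0.0358% and 0.037% in control ganglia (exact permutation p = 0.8). The high value belongs to high dose ganglion 3, and all 6 libraries held under 0.1% of their counts in these features. Of the 605 features of that set 82 were members, 43 with a higher and 39 with a lower fitted level, with a median log2 fold of 0.07. At an unadjusted p under 0.05 were 11 of them on the higher side and 0 on the lower (13.4%, against 2.73% of all members). A scarce feature can meet the count limit through the group where it is high, so this split is no independent support. The median log2 fold was -0.3 without high dose ganglion 3 and 0.52 without control ganglion 3. Over the 5 measures per library tested by permutation the Benjamini-Hochberg adjusted p was 0.8 for each. With the level of the ganglion-restricted set as a covariate, the number of features at an adjusted p under 0.05 was again 0 in edgeR, with 1020 at an unadjusted p under 0.05.

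**Figure D5:**
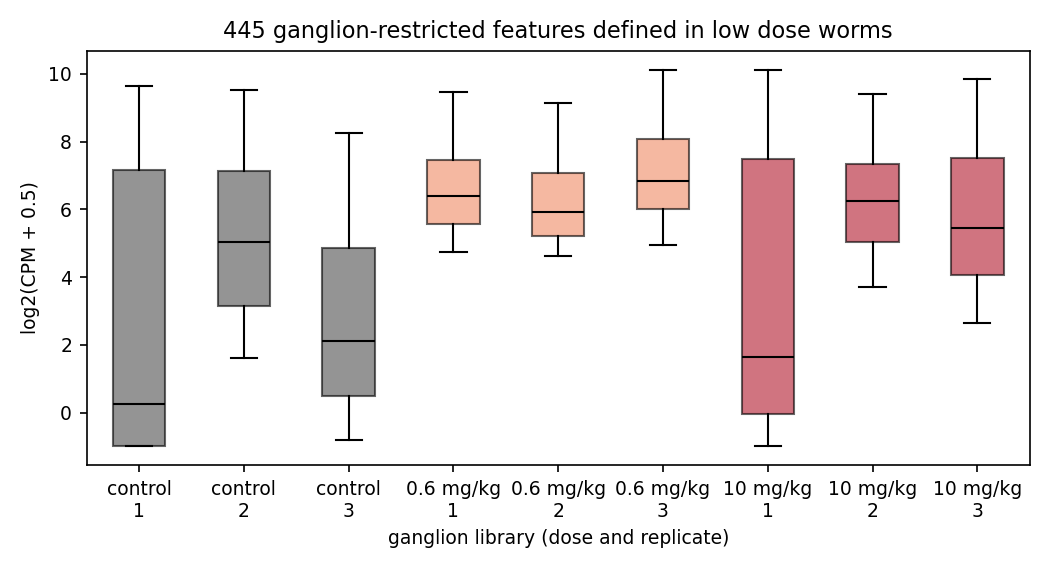
Level as log2(CPM + 0.5) (vertical axis) of the 445 ganglion-restricted features in each of the 9 ganglion libraries (horizontal axis, by dose and replicate); the line is the median, the box runs from the 25th to the 75th percentile and the whiskers from the 5th to the 95th. The medians were 2.64, 74.9 and 42.8 CPM at 10 mg/kg and 0.703, 32.2 and 3.78 CPM in control, where replicate 1 is the lowest of both groups; the low dose libraries defined the set and are high by construction.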

How the data were processed

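Poly(A) RNA of gut and cerebral ganglion was sequenced on an Illumina instrument and assembled de novo, per the labels, which list 18 samples; 17 had a column of values, and control gut 1 was not analysed here. CASAVA and DESeq2 are named in the submitters' processing notes. Not given in the sources used here are their versions, the assembler and the counting program. The deposited expected counts were estimated per assembled feature by the authors and are not scaled between libraries, and between 0.345% and 0.651% of them per library were not whole. The authors also deposited FPKM values, scaled to feature length and library size, used here for lengths and for an alternative test. All columns were matched to a sample, so 0 were left unmapped.

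Rounded counts entered edgeR 4.0.16 (limma 3.58.1, R 4.3.3) with TMM factors. The main test was its quasi-likelihood F test with 1 coefficient per group over 9 ganglion libraries, 6 residual degrees of freedom and a biological coefficient of variation of 71.8%; it is two-sided. Features had at least 10 counts in at least 3 of the 6 high dose and control ganglia, and a call is a Benjamini-Hochberg adjusted p under 0.05 over all of them. DESeq2 1.42.0 and limma on log2 FPKM were alternatives. The test on both tissues ran on 16 samples, the 17 libraries with gut low dose 1 and 3 averaged (mean chi-square of 2.32 per feature, near counting noise). CPM are relative to the TMM-scaled total, an SE is the log2 fold divided by the square root of F, and a group at 0 counts is set to a floor of 3 counts per library. Intervals on counts and floors cover counting error only. Lengths were computed from count and FPKM.

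Deviations from the group means correlated at 0.176, 0.2 and 0.238 for the same-numbered pairs of high dose and control ganglia, each over 0.1. Deviations within a group cancel out, so these correlations are tied to each other and are not separate signs of pairing. The libraries were taken as paired by these values, not by the labels, only where the replicate number was a block in an alternative fit. The main test and the permutation tests did not use this pairing. Library totals of the 6 libraries ran from 13301951 to 15253849 counts; the median SE of a log2 fold was 0.449 at 10 to 30 CPM, 0.404 at 30 to 100 CPM and 0.44 above 100 CPM, so that above 10 CPM it followed the spread between samples more than depth.

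Named features were, per test, the 2 of smallest adjusted p in each direction, then by p where fewer passed; the 2 of highest mean level; and at most 2 features of a single library. Others were chosen after their values were seen. The members and lists were chosen with earlier results of these data known. Planned lists of neuron, muscle, gut, immune, drug metabolism and ion channel genes could not be applied, since the files give no gene names. The scripts were checked on simulated counts, with the pass condition set at a smaller spread than that of these data. The check does not show which differences the main test could detect here.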

Additional observations from a re-analysis of the deposited data

How the results depend on the processing

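The number of features at an adjusted p under 0.05 was 0 with RLE scaling, with library totals alone, with edgeR's own filter, with a mean of 50 counts or more, with only high dose and control libraries and with each library left out in turn (0 to 0). It was 85 with DESeq2, 11 and 9 with limma on log2 FPKM with pseudocounts of 1 and 0.1, 32 with limma and an FPKM of at least 1 in 3 of 6, 7 with all tissues in 1 fit and 1 with gut high dose 1 and 3 averaged there as well. Without a filter on counts, 134409 features were tested and 1521 passed, 1225 higher and 296 lower; the cause of these differences was not tested. The number at an unadjusted p under 0.05 was 1779 with edgeR's filter (48132 tested), 7713 without a filter, 1788 with DESeq2, 2162 with limma and the FPKM filter, 1749 with all tissues, and 1006 to 2038 with 1 library left out, the highest without control ganglion 2. Features whose groups do not overlap numbered 6514 without a filter and 1595 with a mean of 50 counts. With the replicate number as a block 0 features passed, and 1347 had an unadjusted p under 0.05 (1539 with only high dose and control libraries); the block changed no call, and under it the medians of the tissue sets were 1.84 for ganglion and 0.26 for gut. Leaving out 1 library, the median log2 fold ran from 0.88 to 3.46 for ganglion-restricted features and from -0.3 (without high dose 3) to 0.52 (without control 3) for gut-restricted ones. With 1 library left out, which loosens the rule, the number present in every high dose and absent from every control ganglion ran from 70 to 155. With all 6 libraries it was 76 at 5 and 13 at 20 counts. The 4 features named for the main test kept their direction under all alternatives; DESeq2 and edgeR without a filter called all 4, limma on FPKM called both higher ones, and so did the fit over all tissues, where averaging gut high dose 1 and 3 left DN97191_c2_g2 alone. Both higher ones met the count limit only through the high dose group. The count of components and of the difference from gut was 0 throughout. Depth limits features under 1 CPM most.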
